A study of Mus musculus with 18 samples.

Results

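A run of 9 protein-coding genes on mouse chromosome 19 (Ppp1r3c, Tnks2, Fgfbp3, Btaf1, Cpeb3, Ide, Kif11, Hhex and Exoc6) was followed through liver, brain and testis of mice knocked out (KO) for Pcgf6 and of wild type (WT) mice. The 9 were taken by name from the 52636 genes in each deposited library, as neighbours of one another, on the chromosome that also carries Pcgf6. They were picked with the KO and WT values of these libraries known. Their KO and WT levels are therefore given as a description in all 3 tissues, with no p-value, and calls among them are counted without reading anything from the count, while the levels of the WT tissues against each other are tested. The libraries come from male C57BL/6 mice aged 8 weeks, in 6 groups of 3: liver KO, liver WT, brain KO, brain WT, testis KO and testis WT. The labels call the mutant genotype Pcgf6 knockout; the design of the allele is not given in the sources used here. In each tissue KO libraries carry the numbers 4 to 6 and WT libraries 1 to 3, and the labels do not say that each library came from its own animal, so errors and p-values describe the spread between these samples.

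The genes have unrelated functions. Ide is a zinc metalloprotease that degrades insulin and other short peptides, amyloid beta among them. Fgfbp3 is a secreted carrier of fibroblast growth factors. Kif11 (also called Eg5) is the kinesin that pushes spindle poles apart in mitosis, and Btaf1 is an ATPase that removes the TATA-binding protein TBP from DNA. Cpeb3 binds messenger RNAs and controls their translation in neurons, Hhex is a homeobox factor needed for liver development, and Exoc6 is a subunit of the exocyst, which tethers secretory vesicles to the plasma membrane. Tnks2 is a tankyrase, a poly-ADP-ribosyltransferase, and Ppp1r3c brings protein phosphatase 1 to glycogen. Pcgf6 is the subunit that defines PRC1.6, a polycomb complex whose partners MGA with MAX and E2F6 with DP1 bind DNA and which keeps germ cell genes silent in other tissues.

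Poly-A RNA had been sequenced. Reads assigned to genes came to 18990130 to 23529098 per liver library, 20759022 to 23183662 per brain library and 20098777 to 23335596 per testis library. These totals were recovered from the deposited FPKM. This unit states the fragments of a gene relative to the length of its exons and to a library size. Pcgf6, the targeted gene, measured 2.66, 1.66 and 1.44 FPKM in KO 4, 5 and 6 liver, against 4.99, 4.08 and 5.66 FPKM in WT 1, 2 and 3 liver. It measured 3.30, 4.20 and 4.42 FPKM in KO brain and 4.58, 5.18 and 5.29 FPKM in WT brain. In testis it measured 10.6, 9.58 and 9.58 FPKM in KO and 20.4, 19.9 and 22.3 FPKM in WT. The KO libraries were thus lower in every tissue and kept reads of the gene. The log2 fold change (KO minus WT, limma, with its standard error) was -1.35 ± 0.24 for liver, -0.34 ± 0.12 for brain and -1.06 ± 0.09 for testis (limma adjusted p = 0.485, 1.0 and 0.0638 over all genes tested, n = 3 a group). Among the testis libraries 1 stood apart. Testis WT 3 differed from testis WT 1 and 2 with a chi-square per degree of freedom of 33.8 and 33.4, against 3.86 between WT 1 and 2. Liver libraries of a group differed from each other as much, from 27.2 (KO 5 with KO 6) to 56.6 (WT 1 with WT 3). In brain, 3 libraries carried RNA of the liver gene Alb, with 4.24 FPKM in KO 5, 5.47 in KO 6 and 9.55 in WT 3, against 0.41 in KO 4, 0.0154 in WT 1 and 0.0472 in WT 2. The spermatid gene Prm1 was higher in the same libraries, at 4.78, 1.66 and 2.65 FPKM, against 0.512, 0.538 and 0.471. Liver KO 5 and KO 6 held 2.06 and 2.14 FPKM of Prm1, with 0 in KO 4, WT 1 and WT 2 and 0.286 in WT 3. The defining markers of each labelled tissue were present: hepatocyte markers summed to 68700 to 72100 FPKM in KO liver and 63100 to 71600 in WT liver, neuron markers to 762 to 840 FPKM in KO brain and 787 to 838 in WT brain, and spermatid markers to 14300 to 21100 FPKM in KO testis and 12100 to 17400 in WT testis. In such bulk samples, fewer cells of a type and less RNA per cell cannot be told apart.

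The genes lie within 0.952 Mb, at chr19:36731737-37683245 of mm10, and end 9.35 Mb before Pcgf6 (chr19:47033619-47050845). Ppp1r3c comes first (chr19:36731737-36736653, minus strand), followed by Tnks2 (chr19:36834232-36893477, plus), Fgfbp3 (chr19:36917550-36919615, minus) and Btaf1 (chr19:36926079-37012752, plus). Cpeb3 (chr19:37021291-37208601, minus), Ide (chr19:37268743-37337852, minus), Kif11 (chr19:37376403-37421859, plus), Hhex (chr19:37434810-37440731, plus) and Exoc6 (chr19:37550418-37683245, plus) complete the row. Fgfbp3 and Btaf1 are divergent genes whose starts are 6.46 kb apart. Ide and Kif11 are divergent as well, 38.6 kb from start to start. Cpeb3 shares ground with the coding gene March5 and with 3 small or noncoding genes, and the pseudogene Rpl10-ps6 lies inside Ide; the use of strand in counting is not given in the sources used here, so reads of overlapping genes cannot be told apart with certainty.

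The promoter windows of Fgfbp3, Btaf1, Ide and Kif11 are shown because these are the 4 genes whose KO libraries all lay below all WT libraries in brain. Each is the RefSeq window of 250 bases before to 50 bases after the annotated start (GRCm38.p6, 300 bases, 5′ to 3′ on the gene's strand), with CG dinucleotides in capitals. The windows are chr19:36919550-36919849 (minus) for Fgfbp3, chr19:36925829-36926128 (plus) for Btaf1, chr19:37334495-37334794 (minus) for Ide and chr19:37376132-37376431 (plus) for Kif11.
Fgfbp3: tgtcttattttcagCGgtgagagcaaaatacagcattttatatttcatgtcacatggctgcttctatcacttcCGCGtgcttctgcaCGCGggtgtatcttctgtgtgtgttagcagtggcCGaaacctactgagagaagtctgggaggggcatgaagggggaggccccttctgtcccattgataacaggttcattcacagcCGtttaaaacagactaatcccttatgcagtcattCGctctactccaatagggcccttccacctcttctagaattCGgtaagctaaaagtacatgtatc
Btaf1: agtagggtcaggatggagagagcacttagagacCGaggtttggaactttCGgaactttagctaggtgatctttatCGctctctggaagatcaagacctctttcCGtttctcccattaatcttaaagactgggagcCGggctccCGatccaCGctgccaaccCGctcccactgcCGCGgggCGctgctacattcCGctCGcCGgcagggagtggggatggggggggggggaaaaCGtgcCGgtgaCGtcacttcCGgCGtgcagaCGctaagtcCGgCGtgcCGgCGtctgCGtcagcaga
Ide: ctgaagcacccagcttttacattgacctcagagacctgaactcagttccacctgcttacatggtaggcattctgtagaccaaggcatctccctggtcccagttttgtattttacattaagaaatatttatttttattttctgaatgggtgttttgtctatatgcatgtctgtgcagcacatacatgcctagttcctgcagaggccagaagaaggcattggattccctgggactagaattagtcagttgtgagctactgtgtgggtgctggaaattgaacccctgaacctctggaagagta
Kif11: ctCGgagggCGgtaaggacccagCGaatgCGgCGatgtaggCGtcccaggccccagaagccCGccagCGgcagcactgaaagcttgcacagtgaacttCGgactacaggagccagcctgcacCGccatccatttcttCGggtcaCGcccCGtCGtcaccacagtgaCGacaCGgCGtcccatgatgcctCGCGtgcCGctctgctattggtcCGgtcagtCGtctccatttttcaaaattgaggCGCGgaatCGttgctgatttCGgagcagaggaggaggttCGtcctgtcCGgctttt
Btaf1 and Kif11 have 25 and 28 CG dinucleotides in these windows and a GC content of 60.0 and 60.7%, whereas Fgfbp3 has 9 CG at 46.7% GC and Ide has 0 CG at 44.0% GC. The median over 32851 RefSeq mouse promoter windows is 7 CG and 52.7% GC. The RefSeq start used for Ide lies 3308 bases inside the gene span given in the deposited files, so this window is not the outermost start of the gene. Both strands were searched for the E-box CACGTG, the letters bound by MGA with MAX, and for GCGGGAA or its reverse complement TTCCCGC, letters bound by E2F factors. None of these 4 windows holds either. Over all 32851 windows, 7.15% hold the E-box and 4.6% the E2F letters. Among the other members, Ppp1r3c has 1 E-box and Hhex 1 E2F match.

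Ide was lower in KO in all 3 tissues. As background, a segment that holds Ide and Fgfbp3 is known to vary in copy number within the C57BL/6J strain; DNA was not measured here, so the part of gene copies in the values of these genes was not tested. In liver it measured 21.5, 22.2 and 22.7 FPKM in KO 4, 5 and 6, against 35.1, 37.8 and 33.5 FPKM in WT 1, 2 and 3. The KO libraries stood close together and well under the lowest WT library, at 62.4% of the WT mean (log2 fold change -0.68 ± 0.08, SE). In brain Ide measured 6.56, 7.02 and 7.16 FPKM in KO, against 11.5, 10.4 and 11.2 FPKM in WT. The groups were again apart, with KO at 62.6% of WT (-0.67 ± 0.06). In testis, where the gene was highest, it measured 40.9, 37.2 and 38.9 FPKM in KO, against 53.1, 51.3 and 43.5 FPKM in WT. Here the gap was narrower, KO being at 79.1% of WT (-0.33 ± 0.10; -0.42 ± 0.07 without testis WT 3, the lowest WT library). The log2 fold change in testis was less negative than in brain by 0.34 ± 0.12 and than in liver by 0.34 ± 0.13 (combined SE, which takes the tissues as independent). These differences were not tested. Between 954 and 7697 reads per library lay behind the values of Ide.

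Fgfbp3 was lower in KO in all 3 tissues too, from far fewer reads in liver and testis. In brain, its main site among the 3 tissues, it measured 2.64, 2.82 and 3.16 FPKM in KO 4, 5 and 6, against 4.80, 4.62 and 4.84 FPKM in WT 1, 2 and 3. All KO libraries were under all WT libraries, at 60.6% of WT (log2 fold change -0.71 ± 0.09), on 117 to 151 reads in KO and 222 to 236 in WT. In testis it measured 0.224, 0.404 and 0.252 FPKM in KO, against 0.728, 0.635 and 0.832 FPKM in WT. KO testis was at 40.1% of WT (-1.10 ± 0.22; -1.02 ± 0.24 without testis WT 3), on 9 to 18 reads in KO and 29 to 36 in WT. In liver it measured 0.225, 0.400 and 0.392 FPKM in KO, against 0.596, 0.664 and 0.682 FPKM in WT. The liver groups did not overlap either (52.4% of WT, -0.79 ± 0.23), but rest on 5 to 11 reads in KO and 14 to 18 in WT, so the size of the difference is loosely fixed there. Against a pseudocount of 0.1 FPKM, the fold changes in liver and testis understate the ratio of levels; with a pseudocount of 1 FPKM they were -0.30 in liver and -0.42 in testis.

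Ide and Fgfbp3 shared the pattern of all KO libraries below all WT libraries in liver, brain and testis with 4 other genes of 12613 tested in all 3 tissues. That is 6 genes or 0.0476% in all, of which 3 are on chromosome 19, among 448 of its genes tested in all 3 tissues: Ide, Fgfbp3 and Pcgf6. The remaining 3 are Cfdp1, Zfp951 and 4930412C18Rik, on other chromosomes. This pattern is close to the one by which the genes were picked. In liver, moreover, Fgfbp3 had enough reads for a test through its WT libraries, with 14 to 18 reads against 5 to 11 in KO. Its place among the 12613 genes thus rests on the higher of the groups compared. For both reasons nothing is read from the count.

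Kif11 was lower in KO testis and brain and not in liver. In testis, whose dividing germ cells use the mitotic spindle, it measured 5.39, 4.88 and 5.05 FPKM in KO 4, 5 and 6, against 8.89, 8.22 and 8.02 FPKM in WT 1, 2 and 3. The groups were far apart relative to their spread, KO being at 61.0% of WT (log2 fold change -0.70 ± 0.10; -0.73 ± 0.09 without testis WT 3). In brain it measured 0.291, 0.290 and 0.170 FPKM in KO, against 0.351, 0.359 and 0.342 FPKM in WT. All KO libraries were lower, 1 of them by far, on 22 to 38 reads in KO and 45 to 47 in WT (-0.39 ± 0.19; -0.21 ± 0.17 without KO 6). In liver, with 16 to 29 reads in KO and 20 to 33 in WT, the values of 0.264, 0.388 and 0.465 FPKM in KO and 0.375, 0.271 and 0.460 FPKM in WT overlapped (0.01 ± 0.26). The testis fold change was below the liver one by 0.71 ± 0.28 on the log2 scale (combined SE), a difference that was not tested.

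Btaf1, which shares a divergent arrangement with Fgfbp3, lay below WT in every KO library in brain and overlapped in liver and testis. In brain it measured 4.4, 4.6 and 5.12 FPKM in KO 4, 5 and 6, against 6.63, 6.54 and 6.56 FPKM in WT 1, 2 and 3. The WT values were nearly equal and all above KO, which was at 71.5% of WT (log2 fold change -0.48 ± 0.07). In liver it measured 5.79, 7.35 and 7.56 FPKM in KO, against 7.90, 8.63 and 6.57 FPKM in WT, with overlapping groups (-0.16 ± 0.15). In testis it measured 20.6, 20.5 and 19.7 FPKM in KO, against 21.2, 21.2 and 14.9 FPKM in WT. Testis WT 3 alone was low, and the fold change of 0.10 ± 0.15 became -0.07 ± 0.06 without it. The brain fold change was below that of testis by 0.58 ± 0.16 and that of liver by 0.32 ± 0.17 (combined SE), and neither difference was tested.

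**Figure D1:**
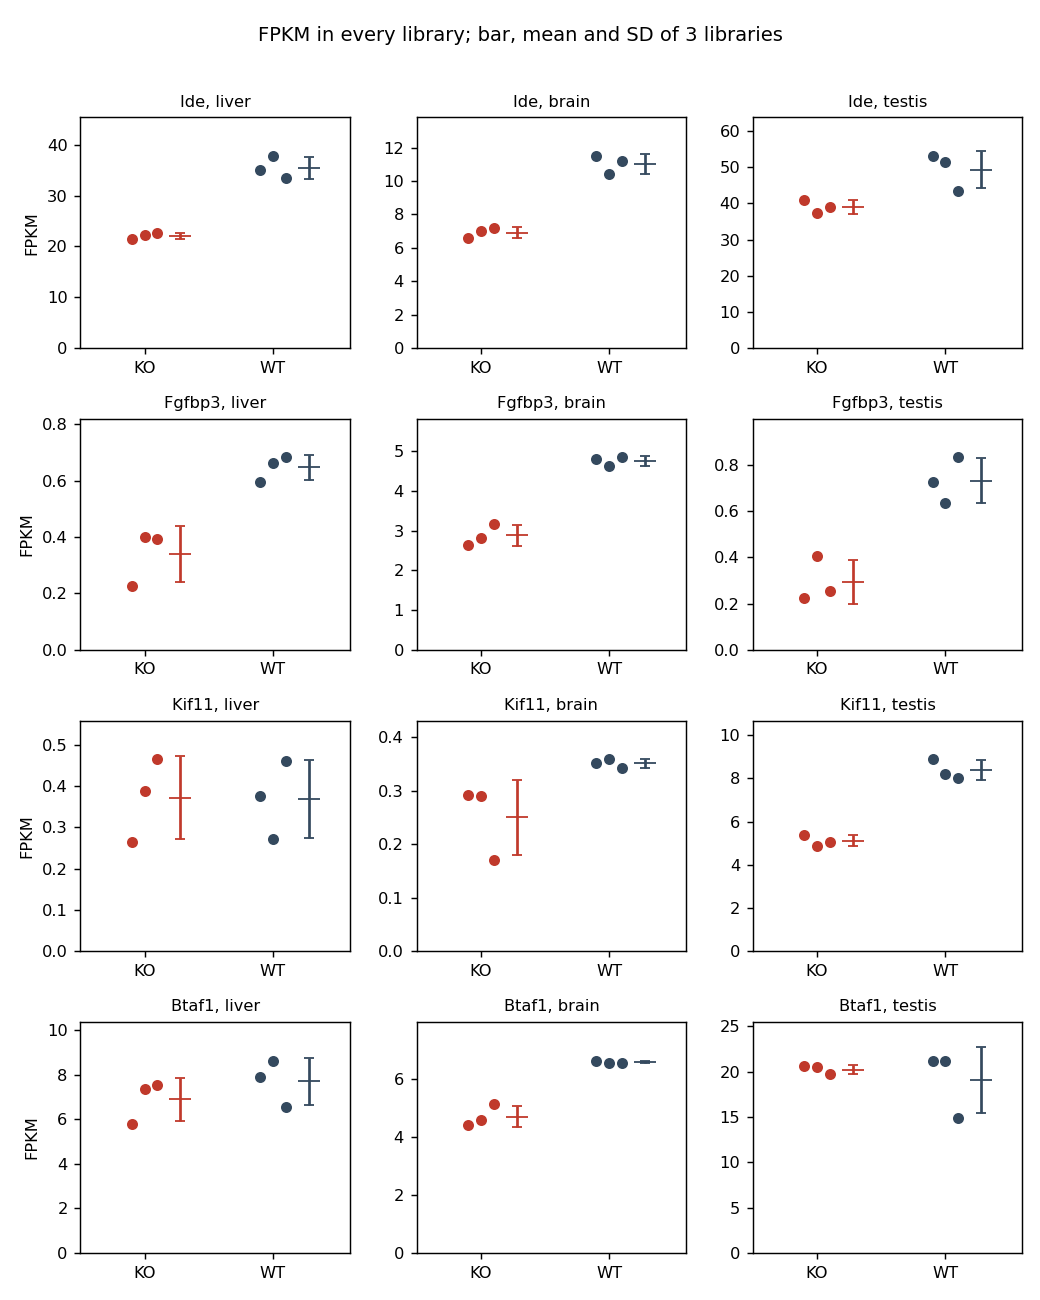
FPKM of Ide, Fgfbp3, Kif11 and Btaf1 (rows) in liver, brain and testis (columns); each point is 1 library, KO left of WT, and the cross with its bar is the mean with the SD of 3 libraries. KO libraries lie below WT libraries in every panel of Ide and Fgfbp3, in brain and testis for Kif11 and in brain for Btaf1, and overlap in the other 3 panels.

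The other 5 genes overlapped between KO and WT in every tissue. Ppp1r3c varied most in liver, at 36.1, 20.5 and 16.3 FPKM in KO 4, 5 and 6, against 30.5, 48.4 and 37.8 FPKM in WT 1, 2 and 3. KO 4 lay inside the WT range while KO 5 and 6 lay under it, for a log2 fold change of -0.73 ± 0.30, which was -1.06 ± 0.21 without KO 4 and -0.49 ± 0.28 without KO 6. In testis Ppp1r3c measured 1.36, 0.921 and 0.790 FPKM in KO and 1.35, 1.27 and 1.6 FPKM in WT (-0.45 ± 0.22; -0.65 ± 0.19 without KO 4 and -0.29 ± 0.23 without KO 6), and in brain KO was at 106% of WT (0.08 ± 0.11). Ppp1r3b, another glycogen-targeting subunit, measured 70.4, 82.2 and 59.9 FPKM in KO liver and 72.5, 132 and 104 FPKM in WT liver (-0.51 ± 0.22, limma adjusted p = 1.0).

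Hhex, the liver factor, measured 46.2, 59.3 and 38.2 FPKM in KO liver and 52.0, 54.4 and 52.7 FPKM in WT liver, a wider spread in KO with no clear shift (-0.17 ± 0.15). In testis it measured 1.13, 0.995 and 1.18 FPKM in KO and 1.04, 1.36 and 1.64 FPKM in WT (-0.25 ± 0.19; -0.41 ± 0.19 without testis WT 1 and -0.10 ± 0.17 without testis WT 3). In brain it measured 0.376, 0.69 and 0.6 FPKM in KO and 0.376, 0.423 and 0.668 FPKM in WT (0.15 ± 0.26). The 3 highest brain values are those of KO 5, KO 6 and WT 3, the same libraries that carried Alb. Scaled by the share that the Alb of each brain library makes of WT liver, the Hhex of WT liver comes to at most 0.0136 FPKM. This scaling takes Alb as the only measure of liver RNA. What sets these libraries apart was not tested. Cpeb3, Exoc6 and Tnks2 had fold changes from -0.14 to 0.09 over the 3 tissues, with KO means between 90.9 and 106% of WT. Cpeb3 in brain, where it acts on synaptic messenger RNAs, measured 10.7, 10.3 and 10.2 FPKM in KO and 10.8, 11 and 10.3 FPKM in WT.

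Over the 9 genes, the KO libraries all lay below the WT libraries for 2 in liver, 4 in brain and 3 in testis, against 4.58%, 4.09% and 4.32% of all genes tested in those tissues. At an adjusted p under 0.05, 0 members were called in liver and in testis and 1, Ide, in brain, where 0.0212%, 0.00448% and 0.0837% of all tested genes were called in liver, testis and brain. The median log2 fold change of the 9 was -0.16 in liver, -0.04 in brain and -0.25 in testis, beside 0.00, 0.01 and 0.03 over all genes tested. Since the genes were chosen on these contrasts, the counts describe the choice.

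What lies between and around these genes was not part of that choice by name. Of 8 other genes in the interval, 3 had enough reads for a test in some tissue. March5, a mitochondrial ubiquitin ligase that overlaps Cpeb3 and lies between Cpeb3 and Ide, measured 19.3, 22 and 20.9 FPKM in KO brain and 20.6, 19.4 and 20.8 FPKM in WT brain. Its log2 fold changes were 0.03 ± 0.06 in brain, 0.15 ± 0.09 in liver and -0.09 ± 0.08 in testis (limma adjusted p = 1.0, 1.0 and 0.871), next to those of Ide at -0.67, -0.68 and -0.33. Lower levels in KO thus did not run evenly through the interval: from left to right in brain the fold changes were 0.08 for Ppp1r3c, 0.01 for Tnks2, -0.71 for Fgfbp3, -0.48 for Btaf1, -0.04 for Cpeb3, 0.03 for March5, -0.67 for Ide, -0.39 for Kif11, 0.15 for Hhex and -0.03 for Exoc6. Rpl10-ps6, the processed pseudogene inside Ide, measured 0.686, 0.286 and 0.521 FPKM in KO brain and 0.842, 0.689 and 0.913 FPKM in WT brain, on 25 and 43 reads in all. Its KO libraries lay just under WT there (-0.67 ± 0.26, adjusted p = 1.0), while the groups overlapped in liver (0.05 ± 0.29) and testis (0.09 ± 0.46), where those of Ide did not. Gm38345, beside Hhex, overlapped in liver (-0.31 ± 0.20, adjusted p = 1.0) and testis (0.02 ± 0.20, adjusted p = 0.986).

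**Figure D2:**
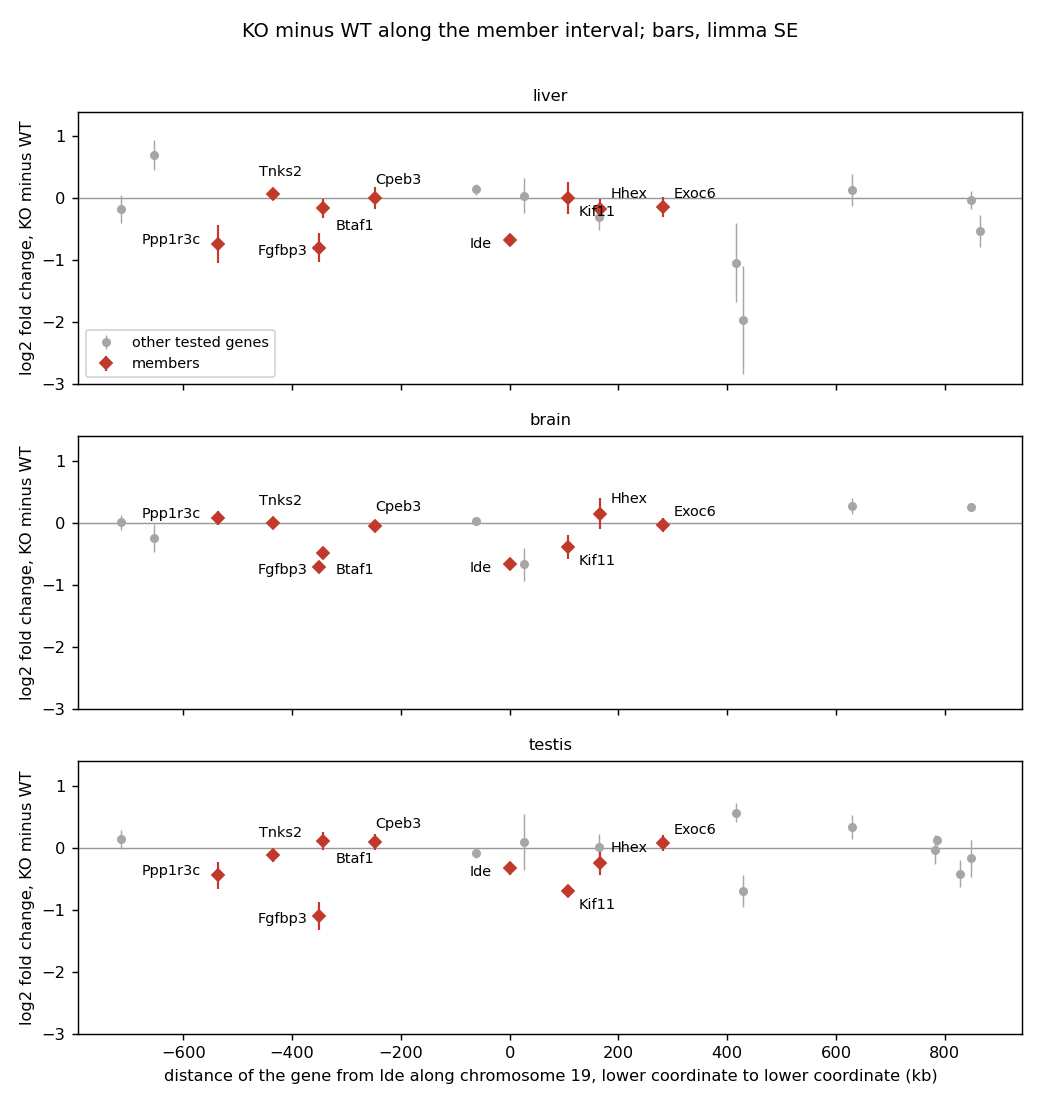
Log2 fold change (KO minus WT, limma, bars are the SE, 3 libraries a group) of the genes tested near Ide, against distance from Ide in kb, in liver, brain and testis; red diamonds are the 9 genes and grey points the others. Genes with low KO values alternate with genes near 0, such as Cpeb3 and March5 between Fgfbp3 and Ide.

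Within 2 Mb of the interval, 27 other genes were tested in liver, 21 in brain and 29 in testis, and limma called 0 of them. Their KO libraries all lay below WT for 2, 2 and 3 of them (7.41%, 9.52% and 10.3%) and all above WT for 1, 2 and 2, with median log2 fold changes of -0.03, 0.03 and 0.06. On other chromosomes, 4.56%, 4.08% and 4.29% of the tested genes lay below WT in this way in liver, brain and testis. Between the interval and Pcgf6, 66, 66 and 76 genes were tested in the same order of tissues, again with 0 called and with 4.55%, 1.52% and 5.26% below WT. Within 2 Mb of Pcgf6, 44, 54 and 62 were tested with 0 called. Over all of chromosome 19, the unadjusted limma p was under 0.05 for 27 of 500 genes in liver, 31 of 557 in brain and 28 of 641 in testis. The share of all tested genes under that unadjusted threshold is not given, so nothing is read from these counts. No gene of the chromosome outside the 9 was called. Ordered by the absolute fold change over its SE, Ide was in position 1 on the chromosome in liver, 1 in brain and 9 in testis, and Fgfbp3 in positions 8, 2 and 4. Kif11 was in position 2 in testis and 48 in brain, and Btaf1 in position 4 in brain. Pcgf6 itself was in positions 3, 19 and 1. These positions come from the contrasts used in the choice and are a description.

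Past Exoc6, 2 neighbours that were named after their values were seen had lower KO levels in 2 tissues. Cyp26a1, which degrades retinoic acid, measured 0.448, 0.538 and 0.549 FPKM in KO testis and 0.774, 0.657 and 1.36 FPKM in WT testis (-0.70 ± 0.26, limma adjusted p = 0.871). In liver it measured 4.76, 6.62 and 3.40 FPKM in KO and 8.93, 8.18 and 89.5 FPKM in WT, with WT 3 far above all others (-1.96 ± 0.87, adjusted p = 1.0). Fra10ac1 measured 6.60, 5.43 and 5.64 FPKM in KO brain and 6.73, 7.52 and 7.73 FPKM in WT brain (-0.31 ± 0.09, adjusted p = 0.876), and its testis fold change was -0.21 ± 0.10 (adjusted p = 0.871). Other genes near the interval, also named after their values were seen, lay the other way. Cyp26c1, beside Cyp26a1, was above WT in every KO testis library (0.57 ± 0.16, adjusted p = 0.871), as were Rbp4 (0.26 ± 0.05, adjusted p = 0.51) and Myof (0.28 ± 0.13, adjusted p = 1.0) in brain and Hectd2os in liver (0.70 ± 0.24, adjusted p = 1.0).

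**Figure D3:**
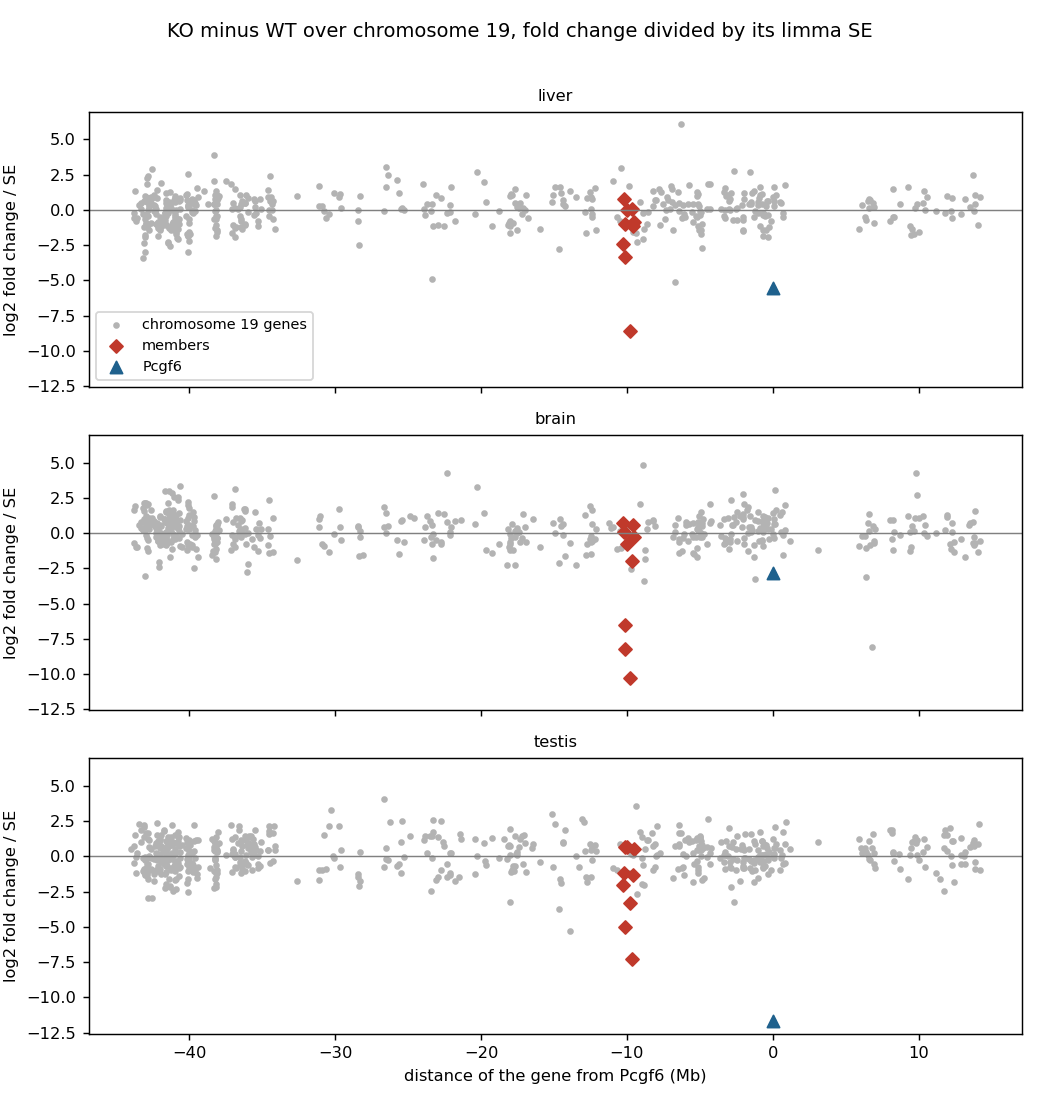
Log2 fold change (KO minus WT) divided by its limma SE for every tested gene of chromosome 19, against distance from Pcgf6 in Mb, in liver, brain and testis; red diamonds are the 9 genes and the blue triangle is Pcgf6. Ide has the largest absolute value in liver and brain and Pcgf6 in testis, where Kif11 is second.

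Genes that work with each member were followed as 9 lists, and limma called 0 genes of any list in any tissue. Among the other peptidases that degrade insulin or amyloid beta, 3 of 7 were higher and 4 lower in liver and in brain, and 4 were higher and 3 lower in testis, with medians of 0.00, -0.02 and 0.02. Nrd1, a metalloprotease of the family of Ide, measured 15.3, 15.5 and 15.7 FPKM in KO brain and 15.2, 15.7 and 16.3 FPKM in WT brain (-0.02 ± 0.05, adjusted p = 1.0). Pitrm1, the mitochondrial peptidase of that family, had a brain fold change of -0.05 ± 0.07 and a liver fold change of 0.04 ± 0.13 (adjusted p = 1.0 each). FGF ligands, receptors and Fgfbp1 had medians of 0.01 over 6 tested in liver, 0.02 over 9 in brain and -0.09 over 9 in testis; Fgf1 in brain measured 22.2, 19.6 and 16.6 FPKM in KO and 16.5, 19.6 and 16.6 FPKM in WT (0.14 ± 0.12, adjusted p = 1.0).

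Other mitotic genes did not share the low values of Kif11 in KO testis. Of 23 mitotic kinesins and spindle genes, 19 were higher and 4 lower there, with a median log2 fold change of 0.07 beside 0.03 over all genes. The count includes testis WT 3, which lay apart for some of them. Kif2c measured 39.0 FPKM in WT 3, against 62.4 and 63.1 in WT 1 and 2, and Kifc1 4.02, against 3.42 and 3.45. The count without that library is not given. Kif14 measured 1.36, 1.36 and 1.44 FPKM in KO testis and 1.52, 1.59 and 1.26 FPKM in WT testis (-0.06 ± 0.15, adjusted p = 0.937). Kif15, a kinesin that works beside Kif11 on the spindle, measured 5.27, 4.94 and 5.65 FPKM in KO testis and 5.40, 5.40 and 4.36 FPKM in WT testis (0.07 ± 0.13, adjusted p = 0.919). Markers of dividing cells (Mki67, Top2a and Cdk1) summed to 26.9 to 30.9 FPKM in KO testis and 26.9 to 29.0 in WT testis, and those of spermatogonia and spermatocytes to 319 to 357 FPKM in KO and 328 to 356 in WT. Both marker sums overlapped between the genotypes, and the part of cell shares in the values of Kif11 was not tested.

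The remaining lists had medians between -0.05 and 0.17. TBP and its partners, on which Btaf1 acts, had a median of 0.11 over 9 genes in liver, -0.02 in brain and 0.07 in testis. In brain, Tbp itself measured 1.89, 1.90 and 1.89 FPKM in KO and 1.87, 1.85 and 1.87 FPKM in WT (0.02 ± 0.09, adjusted p = 1.0). Glycogen targeting subunits and enzymes had a median of 0.13 over 13 genes in liver, 0.08 over 14 in brain and -0.02 over 14 in testis. The CPEB family and its partners had medians of 0.17, 0.02 and 0.09 over 7 genes in liver, brain and testis; Cpeb1 in liver measured 2.36, 2.43 and 1.90 FPKM in KO and 1.15, 0.826 and 1.41 FPKM in WT (0.94 ± 0.22, adjusted p = 0.627). Exocyst subunits (8 genes) and tankyrase partners (7 genes) had medians between -0.02 and 0.00 in every tissue. Hepatic transcription factors had a median of 0.07 over 13 genes in liver, -0.04 over 6 in brain and -0.05 over 8 in testis.

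In brain, the sums of oligodendrocyte markers were apart by genotype beside the low values of Ide, Fgfbp3, Btaf1 and Kif11, while those of cerebellar markers met. Oligodendrocyte markers summed to 836 to 995 FPKM in KO brain and 722 to 825 in WT brain, with all 5 higher in KO and 1 of them, Klk6, called. Cerebellar markers summed to 222, 180 and 169 FPKM in KO 4, 5 and 6 brain and to 169, 164 and 96.5 in WT 1, 2 and 3 brain. The groups met at 169 FPKM, with KO 4 the highest and WT 3 the lowest. All 5 had a higher mean log2 level in KO and 0 were called. The part of either marker group in the values of the 4 genes was not tested. Without the 3 brain libraries that carried Alb, an alternative chosen after the data were seen, the brain fold changes were -0.73 ± 0.10 for Ide, -0.81 ± 0.12 for Fgfbp3, -0.57 ± 0.10 for Btaf1, -0.22 ± 0.25 for Kif11 and -0.07 ± 0.25 for Hhex, with KO 4 as the lone KO library and the spread taken from WT 1 and 2. Cholangiocyte markers summed to 4.03 to 4.23 FPKM in KO liver and 2.56 to 3.33 in WT liver, with 0 of 4 called, and astrocyte markers, low in testis, to 3.73 to 5.03 FPKM in KO testis and 2.63 to 2.97 in WT testis, with 0 called; their part in the liver and testis values was not tested. The other marker sums overlapped between KO and WT in the tissue they mark.

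The WT libraries show how differently the 9 neighbours are used by tissue. The choice of genes is not stated to rest on this comparison, but it was made with earlier results of these data known. Between WT testis and WT brain, limma called 8 of 9 genes at an adjusted p under 0.05, beside 86.1% of all tested genes. Between WT testis and WT liver it called 8 of 9 (87.7% of all), and between WT brain and WT liver 7 of 9 (83.9% of all). Differences between tissues are thus the rule for most genes. The deposited scaling matters here: library totals were 0.823 to 0.969 times the implied library size in testis and 0.806 to 0.835 times in brain, against 1.443 to 1.518 times in liver. Scaling by plain totals moved the median log2 difference of all genes by -0.10 for testis minus brain, 0.65 for testis minus liver and 0.79 for brain minus liver.

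Kif11 averaged 8.38 ± 0.458 FPKM in WT testis, against 0.351 ± 0.00871 in WT brain and 0.369 ± 0.0943 in WT liver (SD, n = 3 each). Testis exceeded brain 23.9 times (log2 difference 4.23 ± 0.11, limma adjusted p = 3.49e-08) and liver 22.7 times (4.20 ± 0.18, adjusted p = 6.54e-07). The levels of brain and liver overlapped (-0.04 ± 0.17, adjusted p = 0.854), and with plain totals brain was higher (0.60 ± 0.16, adjusted p = 0.0102). Hhex averaged 1.35 ± 0.301 FPKM in WT testis, 0.489 ± 0.157 in WT brain and 53.0 ± 1.24 in WT liver. Liver exceeded testis 39.3 times (testis minus liver -5.22 ± 0.16, adjusted p = 1.43e-07) and brain 108 times (brain minus liver -6.53 ± 0.18, adjusted p = 9.6e-08), and testis exceeded brain 2.76 times (1.31 ± 0.24, adjusted p = 0.0016).

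Ide was high in testis and liver. It averaged 49.3 ± 5.10 FPKM in WT testis, 11 ± 0.586 in WT brain and 35.5 ± 2.16 in WT liver. Testis was above brain (2.14 ± 0.10, adjusted p = 6.22e-07), brain below liver (-1.67 ± 0.07, adjusted p = 1.01e-06), and testis above liver by a smaller step (0.47 ± 0.11, adjusted p = 0.00486; 1.21 ± 0.10 with plain totals). Fgfbp3 was a brain gene by level, at 0.732 ± 0.0982 FPKM in WT testis, 4.75 ± 0.117 in WT brain and 0.647 ± 0.0455 in WT liver. Brain exceeded testis 6.49 times (testis minus brain -2.55 ± 0.13, adjusted p = 9.09e-07) and liver 7.34 times (brain minus liver 2.70 ± 0.10, adjusted p = 4.7e-07). Testis and liver were not distinguished (0.15 ± 0.15, adjusted p = 0.383), although plain totals put testis higher (0.78 ± 0.17, adjusted p = 0.0035).

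The divergent partner of Fgfbp3 had another profile. Btaf1 averaged 19.1 ± 3.65 FPKM in WT testis, 6.58 ± 0.0471 in WT brain and 7.70 ± 1.05 in WT liver, and was higher in testis than in brain (1.51 ± 0.15, adjusted p = 4.07e-05) and in liver (1.29 ± 0.18, adjusted p = 0.000353). Brain and liver overlapped (-0.22 ± 0.11, adjusted p = 0.107), and plain totals reversed the sign (0.61 ± 0.11, adjusted p = 0.00143). Cpeb3 averaged 10 ± 1.58 FPKM in WT testis and 10.7 ± 0.368 in WT brain, which were not distinguished (-0.10 ± 0.13, adjusted p = 0.477), and 2.39 ± 0.469 in WT liver, below testis (2.03 ± 0.18, adjusted p = 3.47e-05) and brain (2.13 ± 0.14, adjusted p = 7.63e-06).

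Ppp1r3c averaged 1.4 ± 0.17 FPKM in WT testis, 9.99 ± 0.481 in WT brain and 38.9 ± 8.99 in WT liver, the main glycogen store among the 3 tissues. Testis was below brain (-2.75 ± 0.11, adjusted p = 3.31e-07) and liver (-4.68 ± 0.18, adjusted p = 4.69e-07), and brain below liver (-1.93 ± 0.16, adjusted p = 2.92e-05). Tnks2 averaged 4.86 ± 0.0354 FPKM in WT testis, 13.3 ± 0.493 in WT brain and 8.80 ± 0.285 in WT liver. It was lower in testis than in brain (-1.44 ± 0.07, adjusted p = 1.02e-06) and higher in brain than in liver (0.59 ± 0.07, adjusted p = 0.000124), whereas testis minus liver (-0.84 ± 0.08, adjusted p = 6.32e-05) lost its call with plain totals (-0.12 ± 0.09, adjusted p = 0.263). Exoc6 averaged 2.81 ± 0.297 FPKM in WT testis, 7.73 ± 1.10 in WT brain and 10.1 ± 1.46 in WT liver. Its testis level was below both others (-1.42 ± 0.14 against brain, adjusted p = 3.8e-05, and -1.80 ± 0.14 against liver, adjusted p = 1.85e-05). Brain and liver overlapped for Exoc6 (-0.38 ± 0.15, adjusted p = 0.0454). Of 13 alternatives, 7 had an adjusted p under 0.05, among them plain totals, which turned the difference round (0.45 ± 0.13, adjusted p = 0.0155). The call was lost in 6, among them those without brain WT 2 (-0.27, adjusted p = 0.136), brain WT 3 (-0.39, adjusted p = 0.0829), liver WT 1 (-0.28, adjusted p = 0.119) or liver WT 2 (-0.37, adjusted p = 0.0903).

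**Figure D4:**
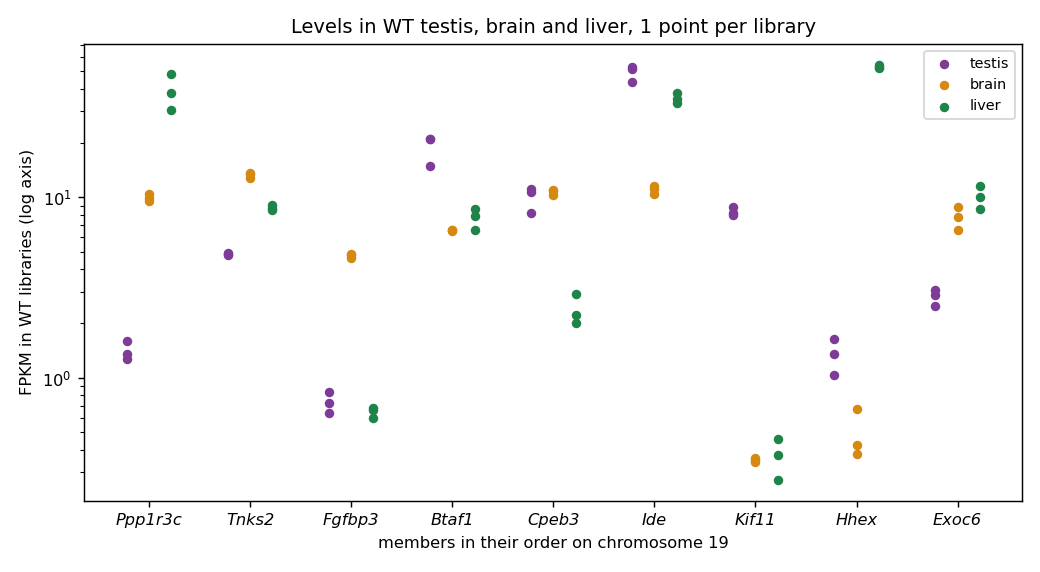
FPKM (log axis) of the 9 genes in WT testis, brain and liver, in their order along chromosome 19; each point is 1 library, 3 per tissue. Kif11 is high in testis, Fgfbp3 in brain and Hhex and Ppp1r3c in liver, with neighbours differing in their order of tissues.

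The genes most like Ide, Fgfbp3 and Kif11 were sought by Pearson's r of log2 values, each centred on its tissue mean, over the 18 libraries and 12613 genes. The centring took both genotypes together, so the gap between KO and WT on which the genes were chosen remains in r. Libraries of a genotype and their depth are also shared by all genes, so r is given as a description. For Ide the 5 highest were Zfp951 (r = 0.901), Rps4l (0.846), CT009718.4 (0.845), Zfp995 (0.839) and Eif2s3y (0.797), none on chromosome 19. Like Ide, all 5 had negative KO minus WT log2 fold changes in liver, brain and testis, for Zfp951 -1.21, -1.1 and -0.18. Fgfbp3 followed as rank 7 (0.786), Pcgf6 as rank 9 (0.744) and Btaf1 as rank 22 (0.667). For Fgfbp3 they were BC028528 (r = 0.800), Tef (0.787), Ide (0.786), Rpsa-ps2 (0.776) and Rps19-ps3 (0.772), with Pcgf6 as rank 12 (0.745). For Kif11 they were Tada1 (r = 0.740), Evc (0.722), Hebp1 (0.712), Synpo2 (0.711) and Uqcc3 (0.682), the last on chromosome 19, and Fgfbp3 was rank 11 (0.654). Cpeb3 was far from both Ide (0.065) and Fgfbp3 (-0.21), although it lies between them.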

How the data were processed

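Poly-A RNA-seq covered KO and WT mice in 3 tissues, with 3 libraries a group. Per the submitters' processing notes, reads were handled with HISAT2 2.0.5, featureCounts 1.5.0-p3 and DESeq2 1.16.1 on mm10. The authors deposited FPKM for 52636 genes per library. Multiplied by gene length, 100% of values fell on steps of 1 read to within 0.01 reads, which gave back the reads; the implied library sizes matched median-of-ratios factors over 14876 genes with a read in every library. Of all genes, 11110 had no read. No library was a copy of another (chi-square per degree of freedom 3.86 to 56.6).

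Tests used limma 3.58.1 (R 4.3.3) with a mean-variance trend on log2(FPKM + 0.1), for genes reaching 10 reads in 3 or more of the 6 libraries, with Benjamini-Hochberg adjustment over all of them and calls at 0.05. The 9 genes and all lists were chosen with earlier results of these data known. Named are the 9 genes, Pcgf6, the other genes of the interval and up to 2 uncalled genes of a list; others were chosen after their values were seen. Positions are those of the files (mm10); 27 symbols had turned into dates, among them March5, which was named by its gene ID. Promoter windows are from RefSeq (GRCm38.p6), matched for all 9 genes and Pcgf6. On simulated reads, limma recovered 50% of 2-fold changes in liver (14042 genes), 80% in brain (17857) and 40% in testis (22274), and 90%, 98% and 95% of 4-fold changes. In the WT comparisons it recovered 80% of 2-fold changes for testis minus brain and 48% for each of the comparisons with liver. Each KO simulation changed 100 genes by 2-fold and 100 by 4-fold, all above a floor of reads. These gave 145, 189 and 139 calls in liver, brain and testis, against 3, 15 and 1 in the real contrasts. The adjustment is stricter where calls are few, so the simulated rates overstate recovery in the real KO contrasts. The WT simulations gave 188, 140 and 147 calls for testis minus brain, testis minus liver and brain minus liver, against 19654, 19062 and 15245 real ones. Their rates therefore do not describe recovery in the real WT comparisons. Same-numbered KO and WT libraries, counted in order of number, deviated together in liver (r of deviations 0.162 to 0.354) and not in brain (-0.085 to 0.252) or testis (-0.065 to 0.09). Between tissues, same-numbered WT libraries had r of 0.068 to 0.134 for testis with liver and 0.041 to 0.104 for brain with liver. For testis with brain, r was -0.018 to 0.062. A combined SE of 2 tissues leaves such sharing out. The alternatives were other pseudocounts (0.01 and 1), a filter at a mean of 1 FPKM or none, plain totals, voom, 1 fit over 18 libraries, a replicate block and each library left out. Python 3.11.15, numpy 2.4.6, pandas 2.3.3 and matplotlib 3.10.9 did the rest.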

Additional observations from a re-analysis of the deposited data

How the results depend on the processing

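The fold changes of Ide, Fgfbp3 and Btaf1 in brain, of Ide, Fgfbp3 and Kif11 in testis and of Ide and Fgfbp3 in liver stayed negative under every alternative run. So did those of Kif11 and Cpeb3 in brain, of Ppp1r3c, Btaf1, Hhex and Exoc6 in liver and of Ppp1r3c, Tnks2 and Hhex in testis. A negative sign that holds is thus not particular to genes whose KO libraries lay below WT. The size of the fold changes moved: over the alternatives Fgfbp3 ran from -0.96 to -0.30 in liver and from -1.33 to -0.42 in testis, in both with the smallest size at a pseudocount of 1. These values are the ones the genes were chosen on, so a sign that holds is no independent support. Genes called were 3 in liver, 15 in brain and 1 in testis; 1 fit over 18 libraries gave 87, 27 and 36, and the filter at a mean of 1 FPKM gave 1 in liver and 9 in brain. In brain the replicate block gave 9 and leaving out the 3 libraries with the most Alb, chosen after the data were seen, gave 4, in a fit with a single KO library whose spread is taken from WT 1 and 2. In testis no filter gave 0 and voom 2. Leaving out 1 library gave 0 to 5 calls for liver, 3 to 11 for brain and 0 to 3 for testis. With the replicate block the calls were 2 in liver and 1 in testis, and 8, 8 and 7 members in the WT comparisons, and it changed no call of Pcgf6. Of the other chromosome 19 genes, where 0 were called, 1 fit over 18 libraries called 2 in liver (Cc2d2b and Snhg1) and 1 in brain (Tdrd1), and voom called 1 in brain (Gm16299). Pcgf6 was called in liver by 1 fit over 18 libraries (-1.35, adjusted p = 0.00109), and in testis by that fit (-1.06, adjusted p = 0.0329) and by voom (-1.07, adjusted p = 0.0222). With plain totals, brain minus liver in WT turned round for Btaf1 (0.61), Kif11 (0.60) and Exoc6 (0.45). Small differences also changed sign without liver WT 3 (Kif11, brain minus liver, 0.10; -0.19 to 0.10 over the libraries left out) and without testis WT 3 (Cpeb3, testis minus brain, 0.04; -0.18 to 0.04). Where a value depends on a setting, the cause was not tested. Depth limits Fgfbp3 in liver and testis, Kif11 in liver and brain and Hhex in brain, with as few as 5 reads per library.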
